A study of Drosophila melanogaster with 2 samples.

Results

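Transcript levels of 6 genes of lysosomal enzymes, 4 cathepsins and 2 glycosidases of the beta-hexosaminidase type, were compared between 2 sets of 3 RNA-seq libraries from the posterior midgut of Drosophila melanogaster. The members were taken by name from the deposited transcript table, each locus being represented by its most-read transcript, and they make up 6 of 13816 loci used. The cathepsins are cathD, CtsB1 (CG10992 in the table, now CtsB), Cp1 (now CtsL1) and 26-29-p (now CtsK1), and the hexosaminidases are Hexo1 and Hexo2. No row carries Cp1 alone, because the table joins it with the overlapping gene CG42806. The most-read transcript of the joint locus was used, and by its RefSeq accession it belongs to Cp1.

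The flies were wild-type Oregon R females raised at 25ºC, aged 45 days or 5 days, with 3 biological replicates at each age and pooled midguts in each extraction. The table names its sets treatment and control, and no source used here says which set is which age. The sets are therefore described as treatment and control. If control is the younger age, as is usual, a value higher in treatment is a value higher at 45 days, but this is not stated.

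Lysosomes are acidic organelles that break down material delivered by endocytosis and autophagy. Cathepsins are their proteases, made as inactive precursors and activated in the acid lumen: cathepsin D, encoded by cathD, cleaves with a pair of aspartates, and cathepsins B and L, encoded by CtsB1 and Cp1, with a cysteine. Lysosomal glycosidases remove sugars from glycolipids and glycans, and beta-hexosaminidases, encoded by Hexo1 and Hexo2, release terminal N-acetylhexosamines. Enterocytes are the absorptive cells of the midgut.

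Library totals over genes lay between 9581965 and 18001958 reads, of which mitochondrial transcripts were 7.66% to 10.1% in treatment and 6.32% to 7.03% in control. Levels are given in CPM, read counts relative to library size, scaled by TMM, which equates libraries on the bulk of their genes. Of 8137 genes with enough reads to test, 4000 (49.2%) passed edgeR's quasi-likelihood test at an adjusted p of 0.05, 25.0% higher and 24.1% lower in treatment. The 3 treatment and 3 control libraries did not overlap in 55.2% of the genes. These shares are the background for what follows. Against the labelled tissue, all 5 enterocyte markers were measured, at a summed 3805 to 4146 CPM in treatment and 7584 to 7806 CPM in control. Of these markers, nub and betaTry rose, and Myo31DF, alphaTry and mag fell. Without the lipase gene mag, which is also on the list of lysosomal hydrolases, the sums were 2728 to 3005 CPM in treatment and 2973 to 3104 CPM in control.

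All 6 genes passed the filter on low counts. Of them, 3 rose in treatment (cathD, Cp1 and CtsB1), 2 fell (Hexo1 and Hexo2) and 1 did not pass the test (26-29-p). With so few members, the count of 5 in 6 beside the 49.2% over all genes is no result about them as a group. Their median log2 fold change was 0.11, beside 0.01 over all genes tested. Both members called lower were hexosaminidases, and the 3 called higher were cathepsins. A further hexosaminidase gene, fdl, counted below with the other glycosidases, was not called. It was at 5.79 CPM in treatment and 6.56 CPM in control (log2 -0.21, edgeR adjusted p = 0.219).

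Ordered by CPM per kilobase of transcript (RPKM, on the same scaling), the 6 genes kept 1 order of set means in both sets, over a wide range of levels. CtsB1 was highest, with a treatment mean of 1374 ± 47.1 RPKM and a control mean of 1139 ± 24.3 RPKM (SD over 3 libraries, as for the genes that follow). Cp1 followed at 675 ± 15.7 RPKM in treatment and 546 ± 6.49 in control, then cathD at 610 ± 30.4 in treatment and 456 ± 20.2 in control. Levels were lower for 26-29-p (112 ± 4.15 in treatment, 117 ± 4.1 in control) and Hexo1 (59.6 ± 2.86 in treatment, 74.6 ± 2.58 in control). Hexo2, at 3.65 ± 0.205 RPKM in treatment and 6.96 ± 0.199 in control, was the lowest. No pair of neighbours in this order overlapped between libraries of a set, the closest being Cp1 (660 to 692 RPKM in treatment, 540 to 553 in control) and cathD (584 to 643 in treatment, 439 to 478 in control). Lengths are those of the transcript models, so these levels depend on the transcript chosen.

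**Figure D1:**
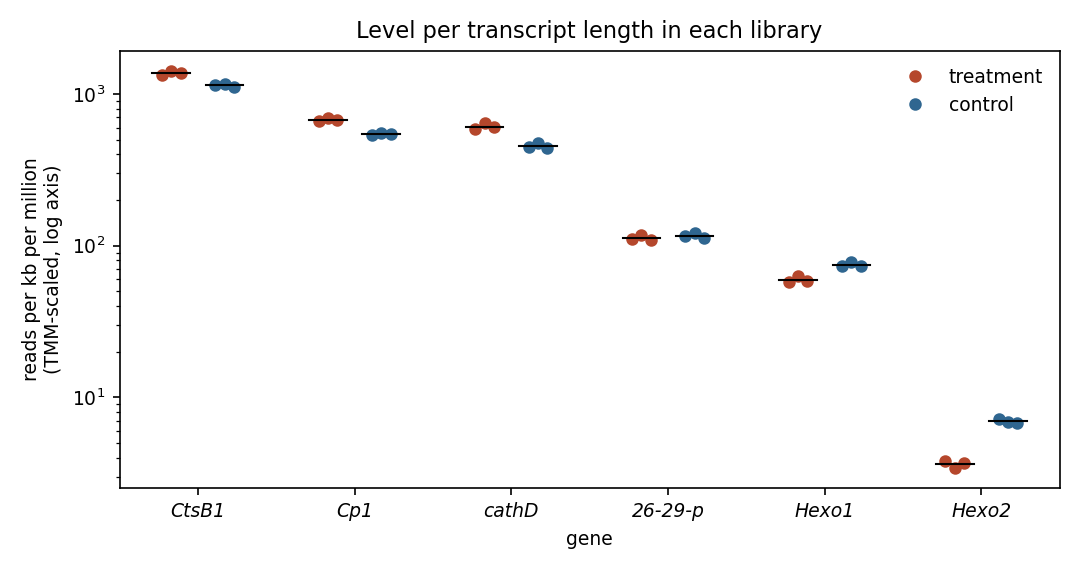
RPKM, TMM-scaled, on a log axis, for the 6 genes in order of their treatment mean. Each point is 1 library, treatment left and control right of each gene, and the bars are the means of 3. CtsB1 stands near 1374 in treatment and Hexo2 near 3.65, with the order of means the same in both sets.

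Of the 4 cathepsin genes described, cathD, the gene of the aspartic cathepsin D, showed the largest rise. Its transcript (2R, 3709615 to 3711073, minus strand, as the deposited table places it, on a build that it leaves unnamed) had 815, 898 and 842 CPM in treatment replicates 1 to 3 and 628, 668 and 613 CPM in the control replicates. Every treatment library lay above every control library. The log2 fold change was 0.42 (SE 0.05; 1.34-fold, 95% interval 1.25 to 1.43; adjusted p = 5.75e-09). Among all genes tested, 27.0% had an absolute change at least as large.

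CtsB1, the gene of cathepsin B (X, 13674051 to 13676214), was the most abundant member and ranked 84 by mean CPM among the genes tested. It stood at 1911, 2044 and 1957 CPM in the treatment libraries and 1636, 1668 and 1598 CPM in the control libraries, without overlap. The rise was 1.21-fold (log2 0.27, SE 0.05; adjusted p = 9.61e-06). CtsB1 supplied 48.7% of the summed CPM of the 4 cathepsins in each treatment library and 49.2% to 49.7% in the control libraries.

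Cp1, the gene of cathepsin L (2R, 9848164 to 9855486), was at 992, 1039 and 1013 CPM in treatment, against 811, 830 and 818 CPM in control. The sets did not overlap, and the difference was 1.24-fold (log2 0.31, SE 0.04; adjusted p = 4.90e-07). Its 4 transcripts had similar totals, the least-read having 94.4% as many reads as the most-read. All 4 were higher in treatment by 0.30 to 0.31 on the log2 scale of mean CPM. The most-read transcript and the next had the same count in every library. The transcripts thus share reads and are not separate measurements of the rise. CG42806, which shares the locus and strand, had 39.2, 41.2 and 41.6 CPM in treatment and 62.8, 61.5 and 59.8 CPM in control, the opposite order. Its reads came to 3.95% to 4.10% of those of Cp1 in treatment and 7.31% to 7.74% in control, and how the authors assigned reads in the overlap is not stated.

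The remaining cathepsin gene, 26-29-p, encodes a papain-like cysteine protease whose relative was described in hemocytes of the flesh fly Sarcophaga. Its transcript (3L, 13987335 to 13989678) had 208, 220 and 205 CPM in treatment and 216, 227 and 213 CPM in control. The sets overlapped, and the log2 fold change was -0.06 (SE 0.04; 95% interval -0.15 to 0.04; adjusted p = 0.324). That interval lies below the estimates of cathD, Cp1 and CtsB1, but the difference between the genes was not tested. With scaling by total reads alone its value turned to 0.15 (adjusted p = 0.00442), under which the median of all genes was 0.22.

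Summed over the 4 cathepsins, transcripts came to 3926, 4201 and 4016 CPM in treatment and 3291, 3393 and 3242 CPM in control. As unscaled shares this was 0.427% to 0.447% of reads in treatment and 0.303% to 0.316% in control. Replicate 2 was the highest library of its set for each of the 4 genes, in both sets. The spread that this gives is small beside the difference between sets for 3 of the genes, with coefficients of variation of 1.19% to 4.99% over the cathepsins.

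**Figure D2:**
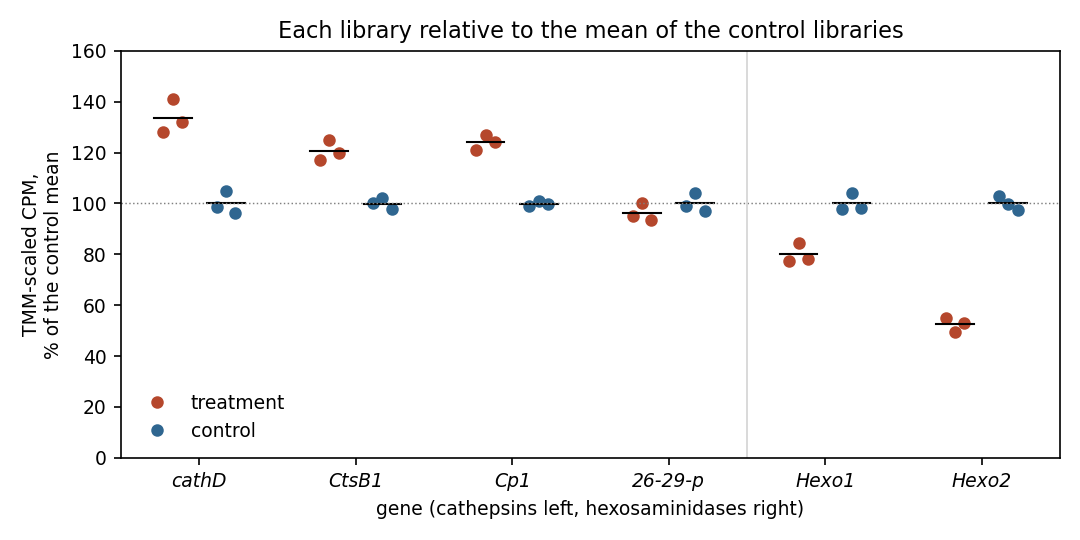
TMM-scaled CPM of each library as a percentage of the mean of the 3 control libraries, cathepsins left and hexosaminidases right of the grey line. Points are libraries, treatment left and control right of each gene, and bars are means. The cathD, CtsB1 and Cp1 treatment libraries sit above 100, those of Hexo1 and Hexo2 below it, and those of 26-29-p overlap its controls.

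Hexo1 (3L, 4288642 to 4291211), a beta-hexosaminidase gene, had 127, 139 and 129 CPM in treatment, against 161, 171 and 162 CPM in control. All treatment libraries were below all control libraries, and Hexo1 fell 1.25-fold (log2 -0.33, SE 0.05; adjusted p = 5.94e-07). With total-read scaling the fall was -0.12 and still passed (adjusted p = 0.0234). Of its 4 transcripts, the least-read had 91.6% as many reads as the most-read, and their log2 ratios of mean CPM were -0.33 to -0.32. All 4 cover the same span with totals this close, so they likely share most reads and are not separate measurements.

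Hexo2 (X, 8603687 to 8606515), the less abundant hexosaminidase gene, showed the largest change among the 6. Its reads numbered 161, 75 and 93 for treatment and 172, 232 and 213 for control, or 8.22, 7.35 and 7.89 CPM in treatment and 15.4, 14.9 and 14.5 CPM in control. The sets were far apart, and Hexo2 fell 1.88-fold (log2 -0.91, SE 0.10; 95% interval -1.12 to -0.71; adjusted p = 3.61e-09). An absolute change as large was seen in 8.74% of genes tested.

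Hexo2 therefore took a smaller part of the pair in treatment. Reads per kilobase of Hexo1 were 15.0, 18.3 and 15.9 times those of Hexo2 in treatment and 10.2, 11.2 and 10.8 times in control. The mean log2 ratio was 4.03 ± 0.15 in treatment and 3.42 ± 0.07 in control (SD, n = 3 each), higher by 0.61 in treatment, with no overlap between the sets. The two-sided exact permutation test gave p = 0.10, the smallest this design allows. A ratio within a library does not depend on the scaling between libraries. Together the pair came to 135, 146 and 137 CPM in treatment and 177, 186 and 176 CPM in control, nearly all of it from Hexo1.

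**Figure D3:**
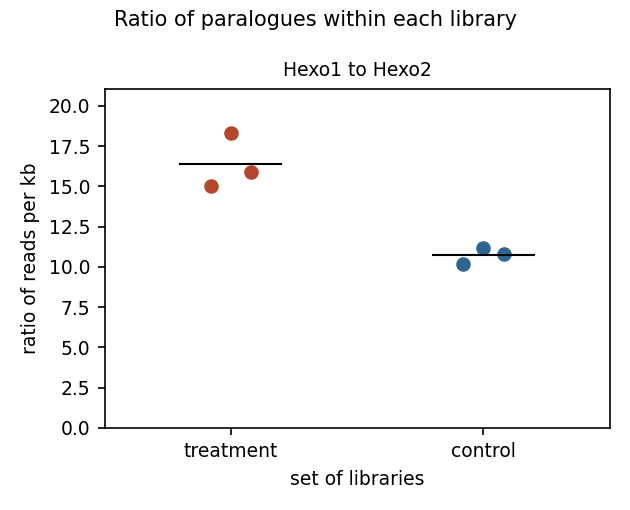
Ratio of reads per kilobase of Hexo1 over Hexo2 in each library, treatment before control, with means as bars and a linear axis from 0. The ratio is 15.0 to 18.3 in treatment and 10.2 to 11.2 in control.

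Other genes of the lysosome were taken from 6 lists of proteases, inhibitors, glycosidases, other hydrolases, membrane proteins and delivery factors. The filter kept 61 of 86 listed genes; 21 rose, 21 fell and 19 did not pass (median log2 -0.03). The lists serve as a description, and a list's share was not tested against other genes.

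Of 23 other cathepsins and lysosomal proteases, 10 were tested, of which 7 rose and 3 fell (median log2 0.36). The 3 falls became 2 with DESeq2 and in several fits that left out a library. Those with the smallest adjusted p were Bace, a beta-secretase-like aspartic protease, CG32483, a serine carboxypeptidase gene, and Swim, a cathepsin-like secreted protein. Bace rose 3.58-fold, to 327 ± 15.2 CPM in treatment against 91.2 ± 1.21 in control (SD, n = 3 each; adjusted p = 4.26e-25). CG32483 fell 3.54-fold, with 51.7 ± 2.16 CPM in treatment and 183 ± 9.32 in control (adjusted p = 7.63e-24). Swim was at 233 ± 0.905 CPM in treatment and 146 ± 10.2 in control (log2 0.67, SE 0.05; adjusted p = 1.14e-13).

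Of 5 genes of cathepsin inhibitors, 4 were tested, of which 3 rose and 1 did not pass (median log2 0.63). The gene crammer (cer), whose product resembles the propeptide of cathepsin L and inhibits such proteases, was at 13.6 ± 0.732 CPM in treatment and 10.7 ± 0.486 in control (1.27-fold; adjusted p = 0.00389). The cystatin-like genes CG8066 (87.0 ± 4.88 CPM in treatment, 45.9 ± 0.743 in control; adjusted p = 5.67e-15) and CG31313 (3.92 ± 0.777 CPM in treatment, 1.43 ± 0.362 in control; adjusted p = 7.87e-06) rose as well.

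Among 15 other glycosidases tested of 19 listed, 8 fell and 4 rose (median log2 -0.42). The genes that fell were Gal, beta-Man and the alpha-mannosidase genes LManI to LManVI. Most of the falls thus came from the alpha-mannosidase genes, and the count does not describe glycosidases at large. The 4 rises became 3 with DESeq2 and in several fits that left out a library. The smallest adjusted p belonged to alpha-mannosidase genes: LManV (log2 -1.46, adjusted p = 5.75e-22), LManIII (-1.15, 2.22e-20) and LManVI (-1.01, 8.34e-18). LManVI was at 3384 ± 13.2 CPM in treatment and 6833 ± 244 in control. These genes form a cluster of related copies that may share reads.

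Of 10 other hydrolases tested of 16 listed, 5 fell and 3 rose (median log2 -0.20). The lipase gene mag was at 1103 ± 33.5 CPM in treatment and 4705 ± 121 in control (log2 -2.09, adjusted p = 5.40e-26). The sphingomyelinase-family gene CG15534 (log2 -0.57, adjusted p = 2.09e-12) and the sulfatase-family gene CG7408 (log2 -0.78, adjusted p = 6.00e-11) fell too. The 3 rises became 1 with DESeq2.

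Of 9 membrane and lumen proteins tested, 4 fell and 2 rose (median log2 -0.05). Ctns, for the cystine exporter cystinosin, fell 3.44-fold, with 99.7 ± 3.63 CPM in treatment and 342 ± 13.5 in control (adjusted p = 1.01e-24). Hgsnat, for an acetyltransferase of heparan sulfate breakdown, fell by 0.65 on the log2 scale (adjusted p = 6.92e-10). Npc2a, for a sterol carrier of the lumen, rose 1.76-fold (adjusted p = 3.73e-14).

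Most genes of delivery to the lysosome did not pass: of 13, all tested, 2 rose, 1 fell and 10 were not called (median log2 -0.01). Mitf, the fly counterpart of the TFEB and MITF factors that regulate lysosomal genes, was at 34.5 ± 2.34 CPM in treatment and 57.3 ± 2.19 in control (log2 -0.73, SE 0.07; adjusted p = 4.79e-11). Arl8, a small GTPase of lysosome movement, rose 1.24-fold (adjusted p = 0.000338). The rise of Vps33B (log2 0.37, adjusted p = 0.0417) was lost with DESeq2 (adjusted p = 0.148), with summed transcripts (0.0591), and without treatment replicate 1 (0.14) or 3 (0.10) or control replicate 1 (0.11) or 3 (0.164).

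**Figure D4:**
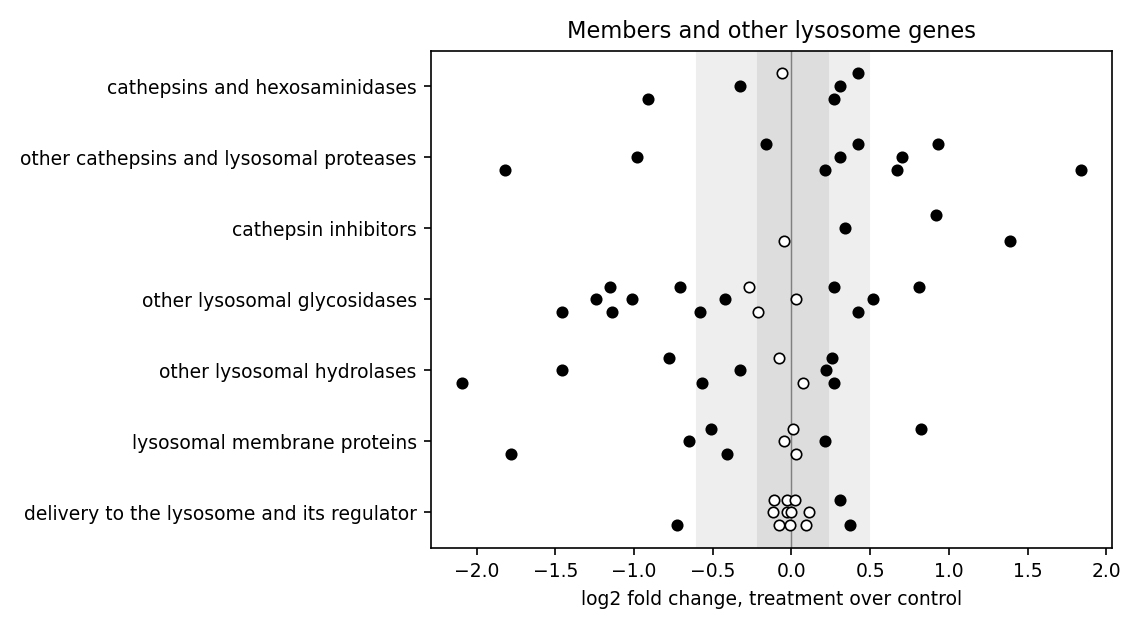
Log2 fold change of treatment over control for the 6 members and for the tested genes of 6 lists of other lysosome genes, each point being 1 gene, filled where the adjusted p was under 0.05 and open otherwise. The vertical offset of points has no meaning, and the shaded bands hold the middle of all genes tested, from -0.21 to 0.23 and, wider, from -0.60 to 0.49. The members lie between -0.91 and 0.42.

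Marker genes of cell types differed between the sets as well, and in whole-tissue RNA fewer cells of a type and less RNA per cell cannot be told apart. The 10 visceral muscle markers measured all fell, with a summed 868 to 881 CPM in treatment and 1859 to 1973 CPM in control. The 5 stem cell and enteroblast markers all rose (171 to 177 CPM in treatment, 106 to 109 in control), and 3 of 5 enteroendocrine markers fell (276 to 294 CPM in treatment, 407 to 430 in control). The 11 hemocyte markers summed to 127 to 135 CPM in treatment and 146 to 150 CPM in control, most of it from crq, which did not pass, and Ppn. Of the 6 that were tested, lz and PPO1 rose, and srp and Ppn fell; He was at 0, and Hml, NimC1 and eater were at most 0.536 CPM in any library. Of the 3 copper cell markers 2 rose (28.7 to 33.6 CPM summed in treatment, 1.28 to 1.91 in control). Most of the treatment sum was Vha100-4, at 25.9 to 30.7 CPM in treatment and 0.769 to 1.25 in control. The other that rose, lab, was at 2.63 to 2.94 CPM in treatment and 0.32 to 0.477 in control. The marker ct was at most 0.272 CPM in any library and was not tested. Of 5 fat body markers, FASN1, a gene of fatty acid synthesis in many cells, was at 36.9 to 43.9 CPM in treatment and 81.4 to 93.2 CPM in control, and the others were at most 0.268 CPM in any library and were not tested. Markers of trachea, Malpighian tubule and ovary each summed to at most 17.8 CPM in any library. Of 4 trachea markers tested, 3 fell (11.7 to 12.7 CPM summed in treatment, 14.9 to 17.8 in control). No tested marker of Malpighian tubule or ovary passed. The part of these shifts in the values of the 6 genes was not tested.

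For likeness, Pearson's r of log2(CPM + 1) over the 6 libraries was taken against 5632 genes with a mean of at least 10 CPM. Since the libraries form 2 sets, a high r mostly records the difference between the sets for members that passed the test. For no member does it say anything of shared control. The closest genes were CG9498 and CtsB1 to cathD (r = 0.9986 and 0.9981), CG9498 and CG8778 to CtsB1 (0.9994 and 0.9989), and CG1213 and Art1 to Cp1 (0.9999 and 0.9994). For Hexo1 they were CG31937 and Takl2 (0.9995 and 0.9983), and for Hexo2 Sugb and Acsl (both 0.9986). For 26-29-p, which did not pass the test, they were CG7430 and Mal-A4 (0.9921 and 0.9769). Its sets overlapped, so these values do not record a clear difference between the sets.

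The authors' deposited table of 4101 genes, whose sign follows treatment over control for the members here, lists 5 of the 6. It gives log2 fold changes of 0.41 for cathD, 0.27 for CtsB1, 0.30 for Cp1, -0.34 for Hexo1 and -0.87 for Hexo2 in the authors' deposited table. It does not list 26-29-p. The largest adjusted p in it is 0.0999, so it seems to hold only genes that passed a threshold in the authors' own test.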

How the data were processed

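Poly(A) RNA was sequenced on an Illumina instrument, per the labels. Raw counts of reads per transcript were deposited by the authors, in column sets named treatment and control, and these names set the groups. No aligner, build, counting rule or strand setting is named in the labels or headers, so antisense reads could be included. A second deposited table lists the authors' adjusted p-values beside log2 fold changes, their SE and a normalized mean (signal), and DESeq is named in the submitters' processing notes. The 6 columns of normalized expression per library were not used.

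After 145 predicted transcripts were left out, the most-read transcript stood for each locus, and 6 loci whose symbol was taken were dropped. Symbols came from RefSeq (Release 6) by gene ID or, for merged loci, accession; 3 list genes lie in merged loci. Counts were fitted in R 4.3.3 with edgeR 4.0.16 (TMM, filterByExpr with a minimum count of 10, quasi-likelihood test, Benjamini-Hochberg over all 8137 genes, called at 0.05), with DESeq2 1.42.0 as an alternative. Within-library ratios were tested with scipy 1.17.1 by exact permutation. Others were total-read scaling, no filter, summed transcripts and leaving out each library. In simulated counts of 8137 genes with 200 changed, 89% of 1.5-fold and 92% of 2-fold changes were called, and 4.74% of calls were false. In the data 4000 genes were called, and cathD, CtsB1, Cp1 and Hexo1 changed by less than 1.5-fold. The simulated rates therefore do not carry over to those calls. Replicates are pools of midguts, so the p-values set a difference against the spread between pools, not between single flies. No library repeated another (chi-square over its degrees of freedom was 2.43 to 7.48 between libraries of 1 set). Each was counted as 1 sample, since the labels give biological replicates. The chi-square cannot show whether the libraries came from separate pools. The genes named were all 6 members described, up to 3 called genes per list by smallest adjusted p, cer, and the 2 genes closest to each member. Beyond this rule, the other glycosidase genes that fell were all named, as was fdl. Other genes of the set are not reported here. Members and lists were chosen with earlier results of these data known.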

Additional observations from a re-analysis of the deposited data

How the results depend on the processing

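The calls and directions of cathD, CtsB1, Cp1, Hexo1 and Hexo2 held under each of the alternatives run: DESeq2, total-read scaling, no filter, summed transcripts and leaving out each library. Summing could not test cathD, CtsB1 or Hexo2, since each has a single transcript and its own counts stayed as they were. For Cp1 and Hexo1 the sum counts reads shared between transcripts more than once, and for Cp1 it includes the reads of CG42806. Scaling by total reads moved most: with it the median of all genes was 0.22, 4127 genes were higher and 1076 lower (2038 and 1962 with TMM), and 4 members were higher. There 26-29-p reversed to 0.15, and other hydrolases had 5 higher, membrane proteins 5 and delivery genes 10. With DESeq2, other hydrolases had 1 higher and delivery genes 1, and with summed transcripts delivery genes had 1. The cause was not tested.

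Leaving out 1 library at a time, log2 fold changes ran from 0.38 to 0.46 for cathD, 0.24 to 0.29 for CtsB1, 0.29 to 0.33 for Cp1, -0.09 to -0.02 for 26-29-p, -0.36 to -0.29 for Hexo1 and -0.96 to -0.88 for Hexo2. The members called stayed at 3 higher and 2 lower in number, and delivery genes higher numbered 1 to 3, with 1 without treatment replicate 1 or 3 or control replicate 1. The log2 difference in the ratio of Hexo1 to Hexo2 ran from 0.53 to 0.67. Hexo2, at 75 to 232 reads per library, is the member most limited by depth.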
